A study of Mus musculus with 48 samples.

Results

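Genomic regions that carried acetylation of histone H3 at lysine 27 (H3K27ac) in the forebrain of newborn, P7 and adult mice, and in none of the prenatal forebrain libraries, are described here. Peaks overlapping by 1 bp or more over all 24 H3K27ac lists were merged into 86181 elements, of which 49303 had a peak in at least 1 forebrain list. An element was a member if it had a peak in forebrain P0, P7 and both P56 replicates and none in either E11.5 replicate, E14.5 or E17.5; P21 and the other tissues were left free. This gave 1431 members, or 2.91% of the 49230 elements with a peak in any of the 8 lists used. Peaks in these 8 lists chose the members, so values from them are given as a description and nothing was tested on them. With the 8 lists cut by rank to the length of the shortest of them, 246 elements met the rule. The heart, liver and P21 lists were cut to the same length, or kept where shorter. Only 18 of the 246 overlapped a member, so that membership depended on how many peaks each list held.

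H3K27ac is placed by histone acetyltransferases on nucleosomes beside active enhancers and active promoters, and it is removed by deacetylases when those elements fall silent. It marks distal enhancers more tissue-specifically than promoters, which are often acetylated in many tissues. In the forebrain, birth falls between the production of neurons, which is largely prenatal, and the formation of synapses, the maturation of astrocytes and myelination by oligodendrocytes, which are largely postnatal.

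All animals were CD-1 mice. Forebrain, heart and liver were taken at 3 embryonic stages (E11.5, E14.5, E17.5) and at postnatal days 0, 7, 21 and 56. Each sample was a pool of several animals, other than those at P56. Cross-linked chromatin was sonicated and immunoprecipitated with an antibody to H3K27ac, and each of the 24 libraries had an input library made from the DNA before immunoprecipitation. Both the E11.5 and the P56 forebrain had 2 replicates, as did the E11.5 heart, and every other group was 1 library, so a stage and its library cannot be told apart. Whether the 2 replicates of a group came from different pools or animals is not in the labels, so their spread may be technical. Whole forebrain holds many cell types, and marking in few cells cannot be told apart from weak marking in many. No mm9 gene annotation or genome was used here, so elements are named by their mm9 position, the tissue labels could not be checked against marker genes, and no sequence is shown.

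The 4 prenatal forebrain lists held 11871 to 27288 peaks, and the 4 postnatal lists of the rule 25709 to 36771. The 9 forebrain libraries held 17135627 to 33394166 uniquely mapped reads. The E14.5 library was the deepest, and P56 replicate 2 and E17.5 were the shallowest, the latter with 17754326. By their names in the headers, the libraries belong to 2 series (IO and LPAN), and P56 replicate 2 was the only forebrain list in LPAN. Its header also carries the word male, and no other header of the H3K27ac lists does. The forebrain P21 list held 15246 peaks, fewer than P7 or P56. The library labelled heart P21 H3K27ac stood apart in heart: its list held 7376 peaks and its input list 23762, where the 23 other input lists held 17 to 865. The authors' deposited table gives 23852 peaks for that H3K27ac library and 23763 for its input, so the list held 30.9% of the number in the table, against 79.9% or more for the 23 other H3K27ac lists. The headers of both files name the antibody target or input as the labels do, and whether the 2 libraries hold what they are labelled as cannot be told from the files. Counts that rest on heart P21 are therefore given with and without it. Leaving it out of the merge gave 1431 members as well.

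The members lay at the edge of the rule on both sides. Elements with all 4 postnatal peaks and exactly 1 prenatal peak numbered 1206, nearly as many as the members. The single prenatal peak was at E14.5 in 788 of them and at E17.5 in 373, against 33 and 12 for the E11.5 replicates. These prenatal peaks ranked low, at a median rank percentile of 21.7 in the E14.5 list and 17.7 in the E17.5 list, where 100 is the best peak of a list. On the other side, 2865 elements had no prenatal peak and 3 of the 4 postnatal peaks. P0 was the one lacking in 1684 of them and P56 replicate 2 in 937, whereas P7 was lacking in 106 and P56 replicate 1 in 138. Leaving out 1 list therefore raised the number of elements meeting the rule by over 1.5 times for 3 lists, to 3115 without P0, 2368 without P56 replicate 2 and 2219 without E14.5. The value without P56 replicate 2 is also the one within a single library series. The opposite pattern, a peak in all 4 prenatal lists and in none of the 4 postnatal lists of the rule, was found in 44 elements, 0 of which had a P21 peak. At equal list lengths the opposite pattern was found in 217 elements, beside the 246 that followed the rule.

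**Figure D1:**
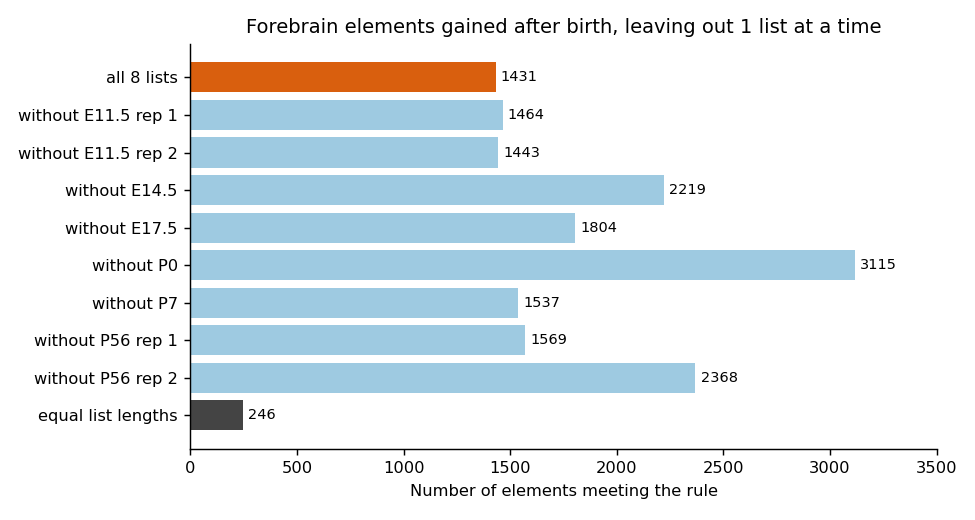
Number of elements that met the rule with all 8 forebrain lists, with each list left out in turn, and with all lists cut to the length of the shortest (bars, number of elements on the horizontal axis). The count lay between 1443 and 1804 without either E11.5 replicate, E17.5, P7 or P56 replicate 1, rose to 3115 without P0, and was 246 at equal list lengths.

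The members were weakly ranked at birth and stood higher in the P7 and P56 lists, but not at P21. Their median rank percentile was 28.2 at P0, 52.2 at P7, 28.2 at P21 in the 606 with a peak there, 53.1 at P56 replicate 1 and 38.4 at P56 replicate 2. Of the 1431 members, 793 had their lowest rank percentile at P0 and 65 their highest, while the highest fell at P56 replicate 1 in 650 and at P7 in 538. Lists differ in length, so these percentiles place a peak among the peaks of its own list and do not measure a change in acetylation. The best peak of a member was also narrower than the list's median at P0, at 1989 bp against 2313 bp, and wider at P56 replicate 1, at 3200 bp against 2493 bp. At P56 replicate 2 the widths were 2241 bp and 2259 bp, so the wider peaks of replicate 1 were not seen in the other P56 library. Peaks of members were also wider at P7, at 2658 bp against 2346 bp, and narrower at P21, at 1837.5 bp against 2039 bp. Across members, of the 6 pairs of these 4 lists, rank percentiles followed each other most closely between the P56 replicates (Spearman rho 0.624 and Pearson r 0.630 over 1431 elements) and least between P0 and P56, with rho 0.158 (r 0.157) for replicate 1 and 0.143 (r 0.147) for replicate 2; all members share these libraries, and no p is given.

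Few members lay within the number of peaks that the cut to equal lengths keeps. The shortest list, E11.5 replicate 2, had 11871 peaks, and 77 members (5.38%) had a P0 peak within the best 11871, against 200 at P7, 409 at P56 replicate 1 and 385 at P56 replicate 2. All 4 peaks lay within that number in 18 members. Of the 246 elements that met the rule at equal lengths, 228 (92.7%) overlapped a prenatal forebrain peak of the full lists.

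Forebrain elements were then ordered by the stage from which they were marked in every list of the rule. Elements with a peak in all 8 lists numbered 7939, those marked from E14.5 onward 2508, from E17.5 onward 373, from P0 onward 1431 (the members), and from P7 onward 1684. The median rank percentile at P56 replicate 1, a list in which all 5 sets have peaks, was lower at each step of that order, from 84.1 through 65.7, 60.3 and 53.1 to 44.5. P56 replicate 2 gave the same order, with 79.4, 53.7, 44.7, 38.4 and 32.9. The interquartile ranges of neighbouring sets overlapped: at P56 replicate 1 the members spanned 37.9 to 66.5 and the elements marked from E17.5 onward 46.3 to 70.7. The 3 latest sets ranked low in their first list, with a median of 17.7 at E17.5 for elements marked from E17.5 onward, 28.2 at P0 for the members and 26.3 at P7 for elements marked from P7 onward. All of these lists took part in defining the sets. The 788 elements with an E14.5 peak, no E17.5 peak and all 4 postnatal peaks stood close to the members, with medians of 55.4 and 40.8 in the P56 lists, although they were marked earlier.

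**Figure D2:**
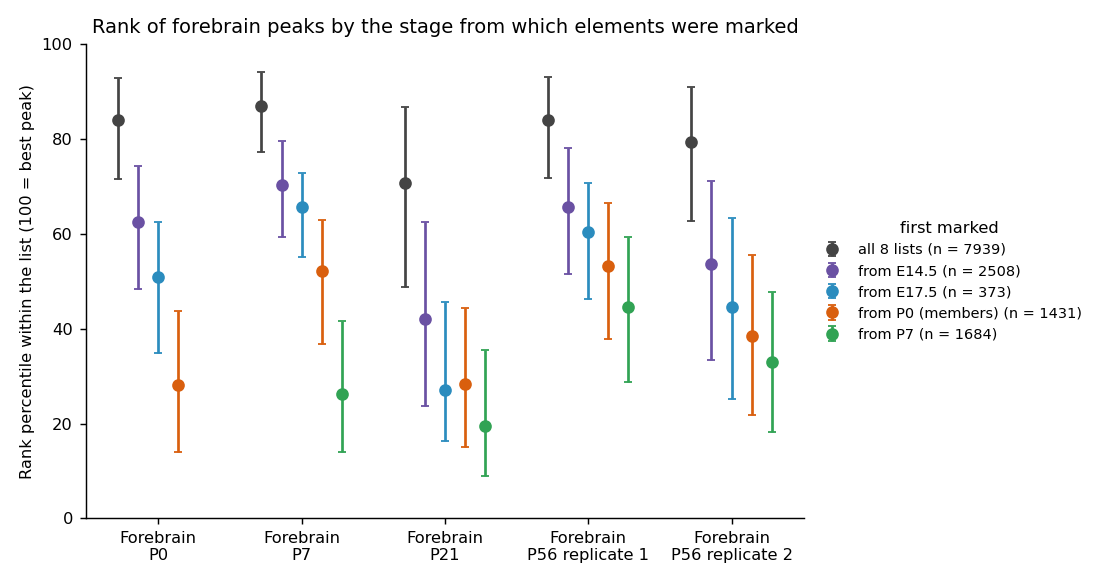
Rank percentile within each postnatal forebrain list (vertical axis, 100 is the best peak) for elements grouped by the stage from which they were marked; points are medians and bars the interquartile range over elements with a peak in that list. In both P56 lists the members lay between the elements marked from E17.5 onward and those marked from P7 onward, with overlapping ranges.

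The 10 members with the highest mean rank percentile over the 4 lists were between 3007 and 18331 bp wide, and 9 of them had a heart or liver peak. The first, on chromosome 9 from 62257866 to 62276196, had rank percentiles of 68.9 at P0, 77.9 at P7, 72.8 at P21, 90.7 at P56 replicate 1 and 83.6 at P56 replicate 2. It had peaks in 7 of the 8 heart lists, lacking only P21, and in 5 of the 7 liver lists. Next was an element on chromosome 2 from 90705897 to 90714704, with 68.7 at P0, 78.3 at P7, 52.6 at P21, 91.6 at P56 replicate 1 and 81.0 at P56 replicate 2. Both stood lower at P0 than in any P56 list, and both were marked in every prenatal heart list. The next, on chromosome 2 from 91075800 to 91078806, went the other way, with 89.2 at P0, 84.6 at P7, 28.3 at P21, 76.5 at P56 replicate 1 and 65.6 at P56 replicate 2. Also on chromosome 2, from 148218449 to 148236282, an element had close values of 70.0, 82.7, 70.1, 80.2 and 79.4 in the same order of lists, and was marked in all 8 heart lists.

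On chromosome 17 from 65990943 to 65994708 an element had rank percentiles of 62.7 at P0, 69.3 at P7, 54.9 at P21, 88.7 at P56 replicate 1 and 91.0 at P56 replicate 2; it had 6 heart peaks and no liver peak. Another, on chromosome 3 from 95681923 to 95692287, had 66.8, 69.4, 42.1, 86.4 and 88.6 in that order, with a peak in 13 of the 15 heart and liver lists. P0 was the lowest of the 4 lists of the rule in both, as in 8 of the 10 elements. One on chromosome 5 from 105892857 to 105905003 had 66.1, 76.5, 52.2, 89.8 and 77.7 and a single other peak, at heart P56. On chromosome 19 from 6528855 to 6535412 the values were 75.7 at P0, 77.1 at P7, 85.3 at P56 replicate 1 and 70.3 at P56 replicate 2, and was the only one of the 10 without a P21 peak; its other peaks were at heart P7 and P56, both postnatal. The element on chromosome 11 from 103508961 to 103519472 was the only one of the 10 with no heart or liver peak, and had 61.7 at P0, 87.2 at P7, 67.0 at P21, 93.8 at P56 replicate 1 and 63.8 at P56 replicate 2. Its 2 P56 values lay far apart. The last of the 10, on chromosome 6 from 31465486 to 31476758, had 62.7, 73.2, 52.0, 87.8 and 82.1 and was marked in all 7 liver lists. At the other end, the lowest member lay on chromosome 2 from 25210521 to 25213526, with 9.72 at P0, 2.69 at P7, 0.145 at P56 replicate 1 and 15.2 at P56 replicate 2, and no P21 peak.

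A peak in the forebrain P21 library was no condition for membership, and 606 of the 1431 members (42.3%, exact binomial 95% interval 39.8 to 45.0) had a peak in it. Intervals cover counting error only, and elements are not independent replicates. The share was 27.6% over all elements with a forebrain peak and 15.8% over all elements. P21 peaks did take part in the merging; with elements built from the 8 lists of the rule alone, chosen after the data were seen, 658 of 1561 elements that met the rule (42.2%) had a P21 peak, beside 26.3% of all elements so built. It was 89.4% (88.7 to 90.0) of the elements with a peak in all 8 lists. Along the order of first marking the share was 64.9% for elements marked from E14.5 onward, 58.4% from E17.5 onward, 42.3% for the members and 27.7% from P7 onward. The 788 elements marked at E14.5 but not at E17.5 went against this order, at 42.1%. These are shares in 1 library, with no replicate at P21, and no test of a difference was made. The short P21 list bounds them all. In the 606 members with a P21 peak its median rank percentile was 28.2, and in 586 of them (96.7%) it lay over the P7 peak. The share moved when single libraries of the rule were left out: without P56 replicate 2, 28.3% of 2368 elements had a P21 peak. Chosen after the data were seen, leaving out P0 gave 34.4% of 3115 elements and leaving out E17.5 gave 45.7% of 1804. It also moved with list length: at equal lengths 212 of 246 elements (86.2%) had one, beside 53.8% of the elements with a forebrain peak.

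A P21 peak was more frequent at higher rank in the other lists. Of the members with a rank percentile of 0 to 25 in the P56 replicate 1 list, 20 of 183 (10.9%) had a P21 peak. The numbers were 106 of 450 (23.6%) at 25 to 50, 314 of 616 (51%) at 50 to 75 and 166 of 182 (91.2%) at 75 to 100. In elements with all 4 postnatal peaks and 1 or more prenatal peaks the shares in the same bands were 12.1%, 29.9%, 69.7% and 97.4%. The bands come from a list that the rule used, and the shares from 1 P21 library, so no difference was tested. Banded by rank at P7 instead, members had 16%, 31.8%, 52.6% and 85.7% against 14.4%, 26.1%, 59.9% and 96.2%. Banded by rank at P0, they had 35.2%, 44.4%, 56.4% and 60% (3 of 5) against 34.2%, 46.7%, 71.9% and 95.6%. Below a rank percentile of 50 the order of the 2 sets thus depended on the list used for the bands. Above 50 the members had the lower share with each of these lists.

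**Figure D3:**
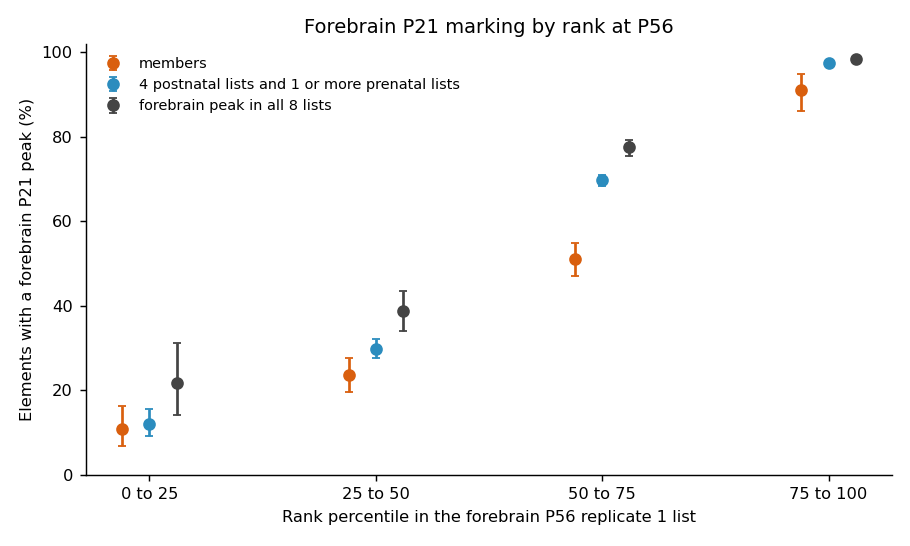
Share of elements with a forebrain P21 peak (vertical axis, with exact binomial 95% intervals) by rank percentile in the P56 replicate 1 list, for members, for elements with all 4 postnatal and at least 1 prenatal peak, and for elements with a peak in all 8 lists. The share of members ran from 10.9% in the lowest band to 91.2% in the highest.

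The 5 members with the highest rank percentile at P21 were chosen by a list in which the rule asked for no peak. On chromosome 8 from 114058307 to 114099486, a span of 41180 bp, the value was 94.8 at P21 beside 19 at P0, 97.3 at P7, 88.8 at P56 replicate 1 and 91.0 at P56 replicate 2. That element had a peak in all 15 heart and liver lists. On the same chromosome from 113277933 to 113281071 the values were 90.8 at P21, 32.1 at P0, 66.7 at P7, 98.1 at P56 replicate 1 and 90.0 at P56 replicate 2, and the only other peaks were at liver E14.5 and E17.5. Both had far lower ranks at P0 than in the adult lists. Also on chromosome 8, an element from 74683671 to 74686566, had 87.9 at P21, 83.8 at P0, 91.0 at P7 and 80.8 and 46.4 in the 2 P56 replicates, so its rank at birth was already high. The element on chromosome 9 from 43848538 to 43853525 had 83.5 at P21, 24.6 at P0, 86.0 at P7, 92.8 and 83.4 at P56, with peaks in heart P21 and P56 alone outside forebrain. The fifth, on chromosome 19 from 5045358 to 5054079, had 82.8 at P21, 40.8 at P0, 76.1 at P7 and 93.2 and 88.5 at P56, with 6 heart peaks and no liver peak. In 4 of these 5 the P0 rank was the lowest of the 5 postnatal values.

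Many members without a prenatal forebrain peak had one in prenatal heart or liver, at a share near that of other forebrain elements. Of the members, 953 (66.6%) had a heart or liver peak, and 759 (53.0%) had one in a prenatal heart or liver list, beside 48.1% of all elements with a forebrain peak and 61.4% of those with all 4 postnatal peaks and 1 prenatal peak. A heart or liver peak over the forebrain P7 peak itself was found in 937 of the 953. Members fell into 478 (33.4%) marked in forebrain alone, 300 (21%) also in heart, 80 (5.59%) also in liver and 573 (40.0%) in both. Leaving out the heart P21 list changed none of these 4 counts. Over all elements with a forebrain peak, 42.6% were marked in forebrain alone and 38.1% in all 3 tissues, and over elements with a peak in all 8 lists 4.45% and 89.2%. In the sets most like the members, fewer were marked in forebrain alone. The share was 27.6% for elements marked from E14.5 onward, 31.9% from E17.5 onward and 29.1% from P7 onward. It was 26.8% for elements with all 4 postnatal peaks and 1 prenatal peak. Marking in forebrain alone was thus less frequent in members than in forebrain elements at full list length, and at equal lengths the order turned, with 44.7% of the 246 elements against 37.5% of 20379. The median number of heart and liver lists with a peak was 3 of 15 for members, 2 for all forebrain elements and 14 for elements with a peak in all 8 lists. Members with peaks in both other tissues were wider, at a median of 8185 bp against 3548 bp for members marked in forebrain alone. Heart and liver peaks took part in the merging and can themselves widen an element, so width and sharing cannot be told apart here. Shares at P21 were 39.7%, 39.7%, 41.2% and 46.1% in the 4 classes in the order above, with intervals that overlapped (35.3 to 44.3 for forebrain alone and 41.9 to 50.3 for all 3 tissues).

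**Figure D4:**
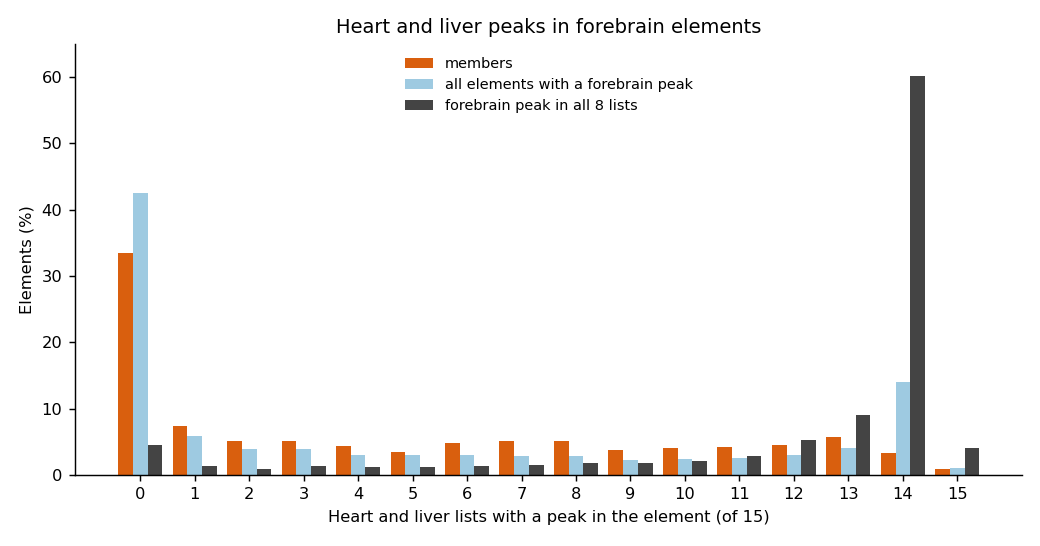
Number of heart and liver lists with a peak (horizontal axis, of 15) in members, in all elements with a forebrain peak and in elements with a peak in all 8 forebrain lists (bars, percent of each set). Members were at 0 lists in 33.4% and spread over the other counts, while 60.1% of the elements with a peak in all 8 forebrain lists had 14.

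More members had a peak in heart (873, or 61.0%) than in liver (653, or 45.6%), as was so for all elements with a forebrain peak (52.9% and 42.7%) and for all elements (58.3% and 48.5%). Peaks in the heart lists other than P21 covered 31% (E17.5) to 48.3% (P0 and P56) of the members, above the share of all 86181 elements in each of the 7, which ran from 23.2% to 40.3%. Against the elements with a forebrain peak the prenatal heart lists differed little, with 39.3% of members against 39.1% and 35.6% against 35.3% at E11.5, 40.8% against 39.2% at E14.5, and a lower share at E17.5 (32.1% of forebrain elements). The postnatal heart lists other than P21 covered more of the members, with 48.3% against 43.0% at P0, 44.6% against 40.7% at P7 and 48.3% against 41.9% at P56. Elements with all 4 postnatal forebrain peaks and 1 prenatal peak stood higher still in the same lists, at 56.6%, 52.4% and 54.9%. The higher share was therefore not particular to the members. In the list labelled heart P21 the shares were 14.7% of members, 7.38% of all elements and 7.97% of forebrain elements. Sets most like the members stood near them, at 14.8% with 1 prenatal forebrain peak, 13.6% from E14.5 onward and 15.5% from P7 onward. Liver lists covered 8.81% (E14.5) to 37.6% (P7) of the members, against 13.3% and 35.9% of all elements in those 2 lists. At liver E14.5 and P0 the members lay below all elements, and in the 5 other liver lists above. Against the elements with a forebrain peak, the members were lower in each of the 7 liver lists except P7, where the shares were 37.6% and 37.2%. The heart libraries came from both library series and the liver libraries from one, and their lists differed in length, so that tissue cannot be told apart from these.

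**Figure D5:**
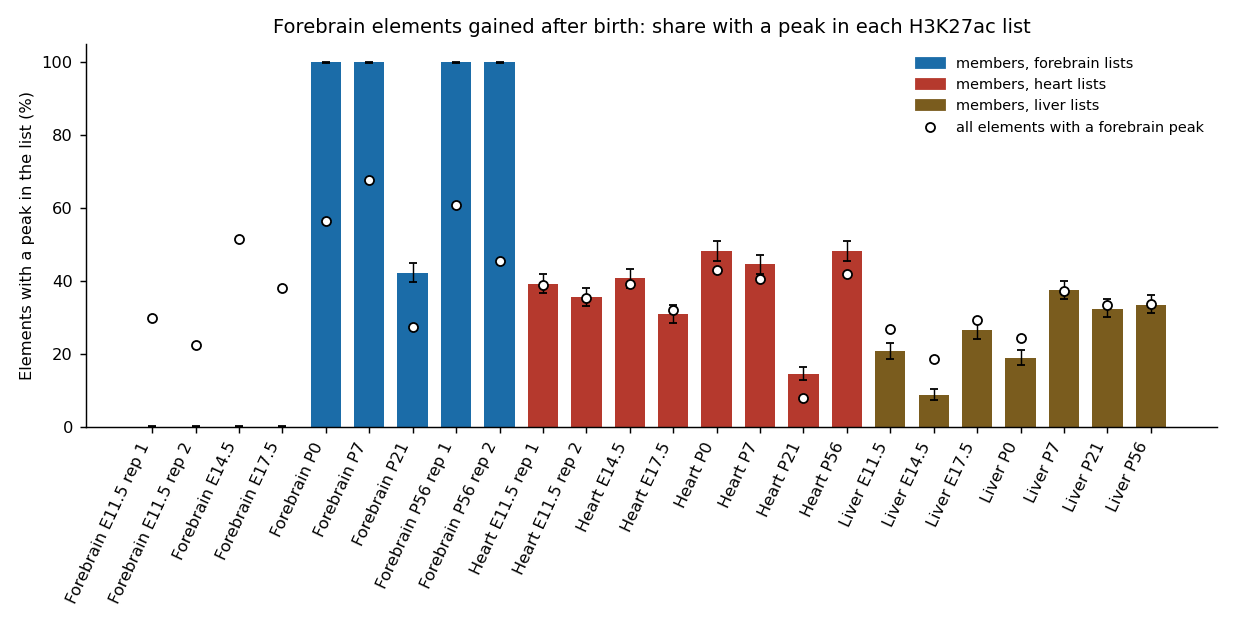
Share of the 1431 members with a peak in each of the 24 lists (bars, with exact binomial 95% intervals), beside the share of all elements with a forebrain peak (open circles). The forebrain bars other than P21 are fixed by the rule at 0 or 100%; P21 stood at 42.3% against 27.6%. In heart, E11.5 replicate 1 stood at 39.3% against 39.1% and P56 at 48.3% against 41.9%, and in liver E14.5 stood at 8.81% against 18.7%.

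In heart, the most frequent pattern among members with a peak was continuous marking. A peak in all 4 prenatal heart lists and in heart P0, P7 and P56 was found in 324 members (22.6%), against 26.3% of all forebrain elements. These elements were marked in heart from E11.5 and entered the forebrain lists at P0. A peak in heart P0, P7 and P56 and in no prenatal heart list was found in 67 members (4.68%, against 2.52% of all forebrain elements), which is 7.67% of the 873 members with a heart peak, beside 7.07% of all 50283 elements with one. With heart P21 required as well, 19 members (2.18% of 873) had the pattern, beside 1.59%. In liver, 7 members had all 4 postnatal peaks and no prenatal peak, 1.07% of the 653 with a liver peak beside 1.21% of all 41817, or beside 1.38% with P21 left free. The opposite pattern, marked throughout before birth and not after, was found in 2 members in heart (0.229%, beside 0.129%) and 4 in liver (0.613%, beside 0.765%). The 70 members marked in all 7 liver lists were 4.89% of the members, beside 15.4% of all forebrain elements. Of the elements with all 4 postnatal forebrain peaks and 1 prenatal peak, 8.21% were so marked. Among elements with a peak in the tissue, the shares of members gained after birth were thus near the background. By the same rule in their own tissues, 3554 elements were gained in heart and 578 in liver. The overlap was 67 members (1.89% of the heart set) and 7 members (1.21% of the liver set). For comparison, 873 of all 50283 elements with a heart peak and 653 of all 41817 with a liver peak were members. In all 3 tissues 0 elements were gained, which with overlaps this small is not read as a separation of the tissues.

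The rule asked nothing of the heart and liver lists, although their peaks took part in the merging, and each element was tested in them for more peaks after birth than before. The exact permutation test, two-sided with labels permuted within tissue, ran over the 65187 elements with a heart or liver peak, with Benjamini-Hochberg adjustment over all of them. It called 0 elements and 0 of the 953 members tested, with a lowest adjusted p of 0.703. At an unadjusted p under 0.05, 61 members (6.40%) had more peaks after birth, beside 4.27% of all elements tested, and 6 members (0.630%) had fewer, beside 0.818%. With 8 heart and 7 liver lists the test cannot give a p below 0.000408, and the lowest among members was 0.00204. After adjustment over 65187 elements, 1 at that floor could be called only if many others stood there too. A lack of calls therefore does not show that marking stayed the same. The postnatal heart lists other than P21 held 36251 to 39133 peaks and the prenatal ones 23210 to 32289, so birth and list length cannot be told apart. Without heart P21, chosen after the data were seen, 85 members (8.92%) passed the unadjusted threshold, beside 7.21%.

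Peaks in every heart and liver list were rare among members. They were found in 13 members (0.908%), beside 1.07% of all forebrain elements. Without heart P21, which limits both, all 14 remaining lists had a peak in 48 members (3.35%), beside 14.3% of all forebrain elements. Of the 13 members with a peak in every list, the first 5 by position were between 9026 and 37347 bp wide. The element on chromosome 1 from 36358602 to 36367627 had forebrain rank percentiles of 61.9 at P0, 66.5 at P7, 34.9 at P21, 76.6 at P56 replicate 1 and 84.2 at P56 replicate 2. The one on chromosome 4 from 154294031 to 154321611 had 49.7, 40.6, 7.24, 28.4 and 41.5 in the same order. The first was therefore a well-ranked forebrain element and the second a middling one. On chromosome 1 from 196498091 to 196531032 the values were 12.2, 17.4, 0.00656, 47.5 and 36.2, and its P21 peak was the last of that list. On chromosome 3 from 10122867 to 10160213 they were 48.5 at P0, 68.0 at P7, 59.7 and 30.8 at P56, and on chromosome 5 from 35296003 to 35325659 they were 1.49, 38.8, 26.1 and 5.33, both with no P21 peak. Mean rank percentiles over the 4 lists ran from 17.9 to 72.3 in these 5, so they shared no single level of rank in forebrain. Over all members with peaks in both heart and liver, the median was 56.8 at P56 replicate 1 and 44.5 at replicate 2. For members marked in forebrain alone it was 49.9 and 34.3. At P0 and P7 the medians were 28.2 and 52.2, against 28.4 and 53.5 for forebrain alone.

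Members were spread over the genome. Their median width was 5035 bp, against 3486 bp for all elements with a forebrain peak and 6438 bp for elements with a peak in all 8 lists. The 4 postnatal peaks shared at least 1 bp in 1254 members (87.6%), with a median shared length of 1619 bp; in the other members peaks of different stages lay apart within the element. The nearest other member was a median of 209 kb away, and 104 members (7.27%) had one within 10 kb. The nearest element with a peak in all 8 lists was a median of 68.5 kb away, against 86.1 kb for the 19495 other forebrain elements with no prenatal peak, and within 10 kb for 11.2% and 10.7% of them.

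Per chromosome, members made up 2.29% (chromosome 4) to 3.88% (chromosome 18) of the forebrain elements on the autosomes. On chromosome X they were 8 of 671 (1.19%, exact binomial 95% interval 0.516 to 2.34). In windows of 1 Mb, 488 of the 847 windows with a member held 1, and 21 held 5 or more. The window from 23000001 to 24000000 on chromosome 19 held 8 members among 40 forebrain elements, the highest number, and 4 of the 8 had a P21 peak. Windows from 85000001 on chromosome 3 and from 80000001 on chromosome 15 held 7 each, among 53 and 51 forebrain elements. Those from 166000001 on chromosome 1 and from 11000001 on chromosome 16 held 6 each, the latter within 343 kb, and in each of the 2 windows 3 members had a P21 peak and 2 were marked in forebrain alone.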

How the data were processed

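Groups were taken from the sample labels. Per the submitters' processing notes, BWA, MACS 1.4 and mouse build mm9 were used; the labels give neither their roles nor their parameters. From the authors came 1 deposited peak list per library, with positions and a rank and no score, and a table of read counts and peak counts per library, whose peak numbers exceed the lengths of the H3K27ac lists, for heart P21 by far the most (23852 against 7376), with no reason stated. The authors' file headers write P1 and P20 for the stages labelled P0 and P21; the labels are used.

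Peaks overlapping by 1 bp or more were merged over 24 lists, and an element took the rank of its best peak. The rank percentile is 100 for the best peak of a list. The per-element test permuted prenatal and postnatal labels within heart and liver (exact, two-sided, Benjamini-Hochberg, threshold 0.05) and was tested on simulated data. Intervals are exact Clopper-Pearson at 95%. Alternatives changed list length, threshold, peak width, overlap, merging, input filter, chromosomes and libraries. Named elements are the 10 members of highest mean rank over the 4 lists, the 5 highest at P21, the 5 with most heart and liver lists (ties by position) and the 5 windows of 1 Mb with most members; the lowest member was added after its values were seen. Members, sets and lists were chosen with earlier results of these data known. Gene lists, promoter distances and motifs were planned and not run, since no mm9 annotation or genome was used here. The tools were scipy 1.17.1, matplotlib 3.10.9, numpy 2.4.6 and pandas 2.3.3 under Python 3.11.15. Coordinates are 1-based mm9 positions.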

Additional observations from a re-analysis of the deposited data

Results flagged for a closer look

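Peaks in the list labelled heart P21 input overlapped 351 members (24.5%). This drew attention because the 23 other input lists overlapped 0 to 6 members each and 6 in all. The list held 23762 peaks, more than the 7376 of the library labelled heart P21 H3K27ac, and whether the 2 libraries hold what they are labelled as cannot be told from the files. Over all elements with a forebrain peak, 28.1% overlapped the heart P21 input list. No other input list of heart and none of forebrain overlapped a member. Without peaks that overlap any input peak, 1155 elements met the rule; when the filter used the 23 others alone, 1431 did.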

How the results depend on the processing

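The following values were recomputed under each setting: the number of elements meeting the rule (1431), their share with a P21 peak (42.3%) and their share with no heart or liver peak (33.4%). At equal list lengths, with the heart, liver and P21 lists cut as well, they were 246, 86.2% and 44.7%. Without 1 replicate of forebrain E11.5 or P56 they ranged from 1443 to 2368, from 28.3% to 42.5% and from 33.0% to 40.5%, with 2368, 28.3% and 40.5% all coming without P56 replicate 2. The best 75% of each list gave a P21 share of 38.5% and peaks trimmed to 1 kb 39.3%. Removing peaks over any input peak gave 42.3% with no heart or liver peak, and 33.4% when the filter left out the heart P21 input list. Merging the 9 forebrain lists alone gave 30.6%. Requiring a P21 peak left 606 elements. Chosen after the data were seen, a peak covering 50% of its element gave 825, 29.8% and 52.0%; building elements from the 8 lists of the rule alone gave 1561, 42.2% and 30.6%; leaving out E14.5 gave 2219 elements and 30.5% with no heart or liver peak, leaving out E17.5 a P21 share of 45.7%, and leaving out P0 3115 elements and a P21 share of 34.4%. The cause of these shifts was not tested, apart from the ranks given for equal lengths. An overlap of 50% of the shorter of peak and element changed nothing, since every peak lies inside its element.

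The exact test in heart and liver called 0 elements under each of the 9 settings run. At an unadjusted p under 0.05, 61 of 953 members (6.40%) had more peaks after birth, beside 4.27% of all elements tested. With each heart and liver list cut to the shortest of them, the number was 21 of 411 (5.11%), beside 1.85%. Without peaks over any input peak it was 37 of 666 (5.56%), beside 2.71%. When that filter left out the heart P21 input list, chosen after the data were seen, it was 61 of 953 (6.40%), beside 4.28%. Without heart E11.5 replicate 1 it was 49 of 943 (5.20%), beside 3.60%, and without replicate 2 it was 41 of 950 (4.32%), beside 3.27%. No paired analysis was possible because the forebrain contrast was given no test and, in the heart and liver test, heart E11.5 alone had numbered replicates. Other promoter windows, gene distances and sequence windows were not run. Peak lists give presence alone, so a region just under the authors' threshold counts as unmarked.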
